A study of Mus musculus with 4 samples.

Results

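Costimulatory and coinhibitory molecules are the surface proteins with which an antigen-presenting cell tells a T cell whether to respond to the antigen it shows. The 10 genes described here were Cd80, Cd86, Icosl, Cd274, Pdcd1lg2, Tnfsf4, Cd70, Tnfsf9, Cd40 and Cd83. They were chosen by name, and every probe on the array whose RefSeq accession belonged to one of them was taken. The 10 genes had 11 probes, among 19751 genes with a symbol and 39429 probes in all. Cd80 had 2 probes and the other 9 genes had 1 each.

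CD80 and CD86, members of the B7 family, bind CD28 on the T cell and give the classical second signal for activation, while CTLA-4 competes with CD28 for the same ligands. ICOS ligand belongs to the same family and binds ICOS, and PD-L1 (Cd274) and PD-L2 (Pdcd1lg2) bind the inhibitory receptor PD-1. OX40 ligand (Tnfsf4), CD70 (Cd70) and CD137 ligand (Tnfsf9) belong to the TNF family and bind OX40, CD27 and CD137, which sustain T cells that are already activated. CD40 is a receptor, not a ligand: it receives CD40 ligand from the T cell and drives the dendritic cell to mature, and CD83 is a surface protein that marks mature dendritic cells.

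The cells were bone marrow-derived dendritic cells (BMDC) of female C57BL/6 mice aged 8 weeks, kept for 6 days in 20 ng/mL GM-CSF, which turns marrow precursors into dendritic cells, from which CD11c+ cells were then taken. Controls (RFF) carried Rbpj fl/fl alleles without a cre. Rbpj-deficient cells (RFF11) carried the same Rbpj fl/fl alleles and CD11c-cre, in which the promoter of the CD11c gene drives the recombinase. No group had the cre with an intact Rbpj, so cre and the loss of Rbpj cannot be told apart. Each genotype had 2 one-colour arrays and its RNA was a pool of 4 mice. The labels do not say whether both arrays of a genotype shared that pool. The p-values therefore measure the spread between these arrays alone, and that spread may be technical. All cultures shared GM-CSF, and the labels name no further stimulus.

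Of the 43020 spots for genes on each array, 55.2% to 58.4% were well above background. Levels correlated across genes at 0.997 and 0.998 within the genotypes and at 0.993 to 0.994 between them. The brighter probe of Rbpj, the targeted gene, read 2.69 and 2.60 in controls, against 1.36 and 1.43 in the libraries labelled Rbpj-deficient, or 42.1% of the control signal. Itgax, the gene of CD11c, read 6.69 and 6.62 in control and 6.65 and 6.45 in Rbpj-deficient cells. Levels here are log2 signal less the 75th percentile of the same array, so that 0 stands for that percentile, and a level is compared only with the level of the same probe on another array. The precision of every value is limited by the number of arrays.

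All 10 genes were well above background on all 4 arrays, and none had a saturated spot. Only Tnfsf4 among them passed the threshold of 0.05 in limma after Benjamini-Hochberg adjustment over 17974 genes, and it fell, whereas 1.90% of all genes tested passed in either direction, 1.05% as higher and 0.851% as lower. The median log2 change of the 10 genes was -0.21, against -0.01 for all genes tested, with 6 of the 10 below 0. Among all genes tested, 9490 of 17974 lay below 0. The 2 genotypes did not overlap at 8 of the 10 genes, 6 lower and 2 higher in Rbpj-deficient cells, while 59.1% of all genes tested did not overlap, 32.3% as lower and 26.7% as higher. At an unadjusted p under 0.05 stood 4 of the 10 genes, all 4 lower, against 24.1% of all genes tested, of which 12.9% as lower. As the RNA came from a population of cells, fewer cells with a transcript and less of it per cell cannot be told apart.

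**Figure D1:**
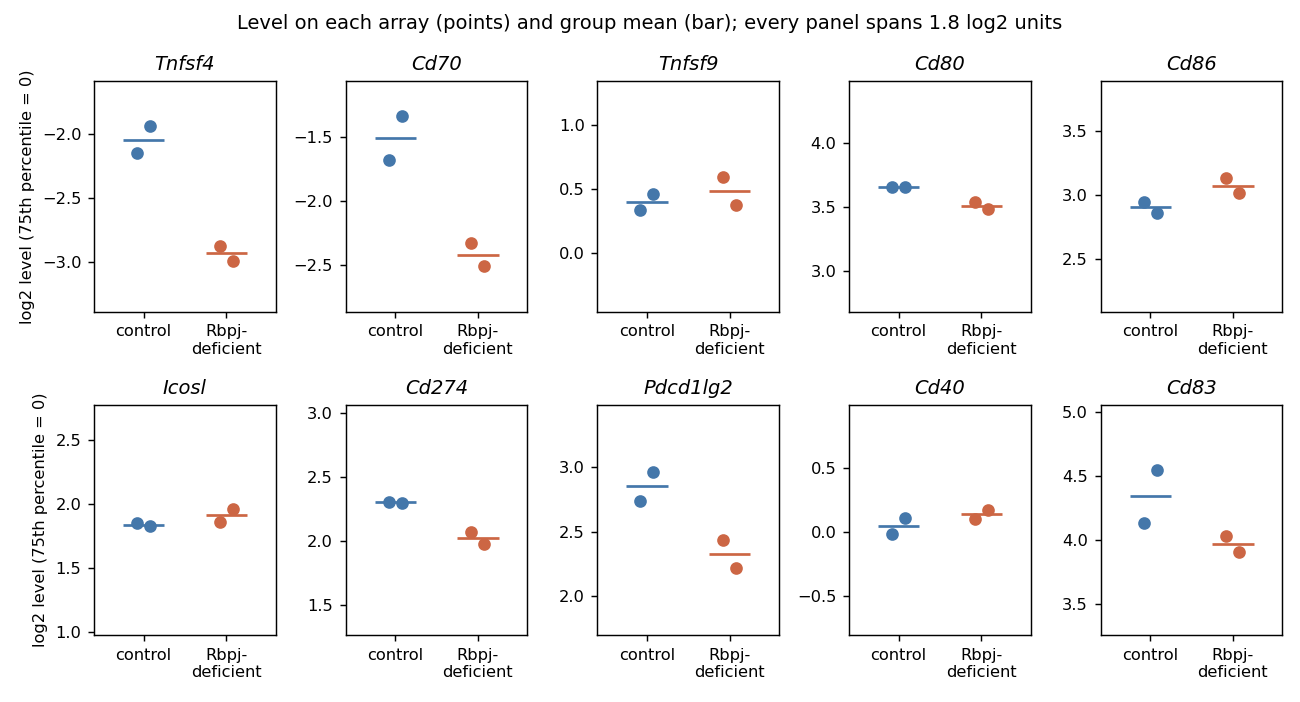
Log2 level (75th percentile of the array = 0) of the 10 genes on each of the 4 arrays, with control arrays in blue and Rbpj-deficient arrays in orange, and a bar at the mean of each genotype. Each panel has its own vertical range of the same length. The widest gaps between the genotypes are those of Tnfsf4 (0.73) and Cd70 (0.65), and the points overlap for Tnfsf9 and Cd40.

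The TNF family ligands did not move together. Tnfsf4, the ligand of OX40, fell to 54.1% of the control level. It read -2.15 and -1.94 in control cells, compared with -2.87 and -2.99 in Rbpj-deficient cells. Both Rbpj-deficient arrays lay below both control arrays, with a gap of 0.73 that was wider than the spread within either genotype (0.21 and 0.12). The log2 change was -0.89 (SE 0.10, limma adjusted p = 0.0469), with a 95% interval of -1.16 to -0.62, or 1.85-fold lower. The probe was dim. Its signal ran from 183 to 372 units over a local background of 22.0 to 26.0 units. When the background was corrected with normexp, the log2 change of Tnfsf4 was nearer 0, at -0.65 (limma adjusted p = 0.0178). Leaving out any 1 of the 4 arrays ended the call of Tnfsf4, with limma adjusted p of 0.116 without control replicate 1, 0.136 without control replicate 2, 0.152 without Rbpj-deficient replicate 1 and 0.183 without replicate 2 of that genotype, while the log2 change stayed between -0.99 and -0.78.

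Cd70, the ligand of CD27, had the change farthest from 0 among the 10 genes but did not pass. Its levels were -1.68 and -1.34 in control and -2.33 and -2.51 in Rbpj-deficient cells. The genotypes were separated by 0.65, while the control arrays differed by 0.34 from each other. The log2 change was -0.91 (SE 0.15, limma adjusted p = 0.0676), with a 95% interval of -1.31 to -0.51, and the Rbpj-deficient mean was 53.2% of the control mean. Of all genes tested, 2.08% had a larger absolute change. This probe was also dim, at 255 to 565 units of signal over a local background of 26.0 to 29.0. Cd70 did pass when the background was corrected with normexp (log2 change -0.70, limma adjusted p = 0.0375) and under a robust variance prior with a trend on signal (limma adjusted p = 0.0192).

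Tnfsf9, the ligand of CD137, showed no separation of the genotypes. It read 0.34 and 0.46 in control and 0.59 and 0.37 in Rbpj-deficient cells, so that 1 Rbpj-deficient array lay between the control arrays. The log2 difference was 0.09 (limma adjusted p = 0.653), and its 95% interval of -0.20 to 0.37 corresponds to 0.870-fold to 1.29-fold. Without Rbpj-deficient replicate 1 the difference was -0.026. Tnfsf9 and Cd70 are neighbours on the same chromosome in the RefSeq annotation, and Tnfsf14, the gene of the TNF family ligand LIGHT, follows Cd70. Tnfsf14 stood at -0.20 (limma adjusted p = 0.310). The interval of Cd70 ended at -0.51, below the lower end of that of Tnfsf9, and the differences between the changes of these 3 neighbouring genes were not tested.

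**Figure D2:**
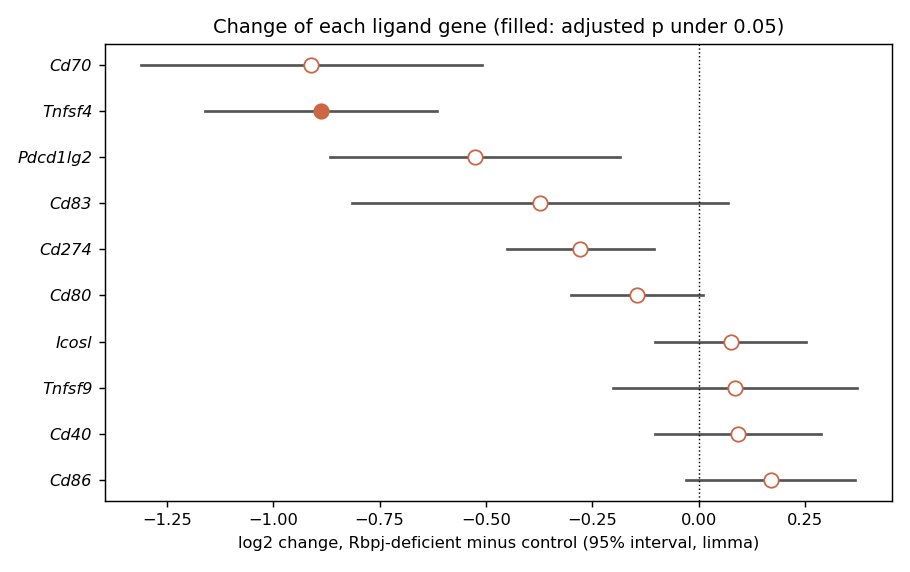
Log2 change of each of the 10 genes, Rbpj-deficient minus control (horizontal axis), with the 95% interval from limma as a line and a filled point where the adjusted p was under 0.05. The intervals of Cd70, Tnfsf4, Pdcd1lg2 and Cd274 lie wholly below 0, and only Tnfsf4 is filled.

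None of the 3 ligands of CD28 and ICOS passed. With its brighter probe Cd80 read 3.65 on both control arrays, and 3.54 and 3.48 in Rbpj-deficient cells. Both Rbpj-deficient arrays were lower, and the difference of -0.15 (SE 0.06, limma adjusted p = 0.226) had a 95% interval of -0.30 to 0.01. The dimmer probe of Cd80 read -0.33 and -0.44 in control and -0.39 and -0.58 in Rbpj-deficient cells, a difference of -0.09 with overlapping genotypes. The probes of Cd80 thus pointed the same way. The interval of the brighter probe spans 0.812-fold to 1.01-fold, so a fall as large as that fitted for Tnfsf4 lies outside it.

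Cd86, the other ligand of CD28, lay in the opposite direction. Its levels were 2.95 and 2.87 in control and 3.13 and 3.02 in Rbpj-deficient cells. The genotypes did not overlap, but the gap between them was 0.07, smaller than the spread within either (0.08 and 0.11). The log2 difference was 0.17 (SE 0.07, limma adjusted p = 0.255), with an interval from 0.980-fold to 1.29-fold. Icosl, the ligand of ICOS, read 1.85 and 1.83 in control and 1.86 and 1.97 in Rbpj-deficient cells. Its genotypes were separated by 0.01, and the difference was 0.07 (SE 0.06, limma adjusted p = 0.522), with an interval from 0.931-fold to 1.19-fold.

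Both ligands of PD-1 were lower on both Rbpj-deficient arrays, and neither passed. Pdcd1lg2 (PD-L2) read 2.74 and 2.97 in control and 2.44 and 2.22 in Rbpj-deficient cells. The gap between the genotypes was 0.30, against spreads of 0.23 and 0.22 within them. The log2 difference was -0.53 (SE 0.12, limma adjusted p = 0.114), with a 95% interval of -0.87 to -0.18, or 69.5% of the control mean. Cd274 (PD-L1) read 2.31 and 2.30 in control and 2.07 and 1.98 in Rbpj-deficient cells. The control arrays differed by 0.01 and the genotypes by -0.28 (SE 0.06, limma adjusted p = 0.105), with an interval of -0.45 to -0.11, or 82.5% of the control mean. Cd274 passed under the trended and robust variance prior (limma adjusted p = 0.0335). The genes on either side of this pair in the RefSeq annotation stood about as low as Cd274, with Plgrkt at -0.25 (limma adjusted p = 0.153) and Ric1 at -0.29 (limma adjusted p = 0.137).

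Cd274 and Pdcd1lg2 adjoin each other in the RefSeq annotation, and since both lay lower their promoters are shown, as given by RefSeq for GRCm38.p6 from 250 bases before to 50 bases after the start site. The capitals mark a match to the NF-kappaB consensus motif, NF-kappaB being the transcription factor family through which CD40 and many maturation signals act.
Pdcd1lg2 (chr19:29410669-29410968, + strand): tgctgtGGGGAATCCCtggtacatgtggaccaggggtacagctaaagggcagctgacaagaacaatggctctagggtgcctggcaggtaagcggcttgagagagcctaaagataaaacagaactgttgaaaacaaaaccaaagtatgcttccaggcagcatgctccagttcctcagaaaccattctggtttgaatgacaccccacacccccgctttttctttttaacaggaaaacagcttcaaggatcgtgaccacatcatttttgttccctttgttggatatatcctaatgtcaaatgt
Cd274 (chr19:29367188-29367487, + strand): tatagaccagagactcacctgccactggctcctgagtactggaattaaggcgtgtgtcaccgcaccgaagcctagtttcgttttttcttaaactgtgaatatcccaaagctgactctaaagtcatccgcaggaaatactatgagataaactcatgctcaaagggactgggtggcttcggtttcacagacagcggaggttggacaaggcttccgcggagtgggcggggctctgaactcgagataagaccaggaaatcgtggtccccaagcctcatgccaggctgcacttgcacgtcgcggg

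Promoters were at hand for 4 of the 10 genes: Cd80, Icosl, Cd274 and Pdcd1lg2. Each was searched on both strands for the core letters bound by RBPJ (TGGGAA), for the NF-kappaB consensus and for the STAT letters TTCNNNGAA. The match in Pdcd1lg2 runs from 244 to 235 bases before the start site and reads as the motif on either strand, and 4.51% of 32851 promoters of this length hold such a match. The RBPJ letters occurred once, in Cd80, from 211 to 206 bases before the start site on the + strand, and 25.6% of promoters hold them. The STAT letters, found in 8.30% of promoters, were not in these 4 windows, and no match overlapped one of another motif. A match describes letters in the window and says nothing of binding.

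Cd40 and Cd83, which report on the state of the dendritic cell itself, did not pass. Cd40 read -0.01 and 0.11 in control and 0.10 and 0.17 in Rbpj-deficient cells. The genotypes overlapped, and the difference was 0.09 (SE 0.07, limma adjusted p = 0.480), with an interval from 0.930-fold to 1.22-fold. Cd83 read 4.13 and 4.55 in control and 4.03 and 3.91 in Rbpj-deficient cells. Both Rbpj-deficient arrays were lower, but the control arrays differed by 0.41, more than the gap of 0.10 between the genotypes. Its difference was -0.37 (SE 0.16, limma adjusted p = 0.258), and it ran from -0.58 without control replicate 1 to -0.17 without control replicate 2.

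**Figure D3:**
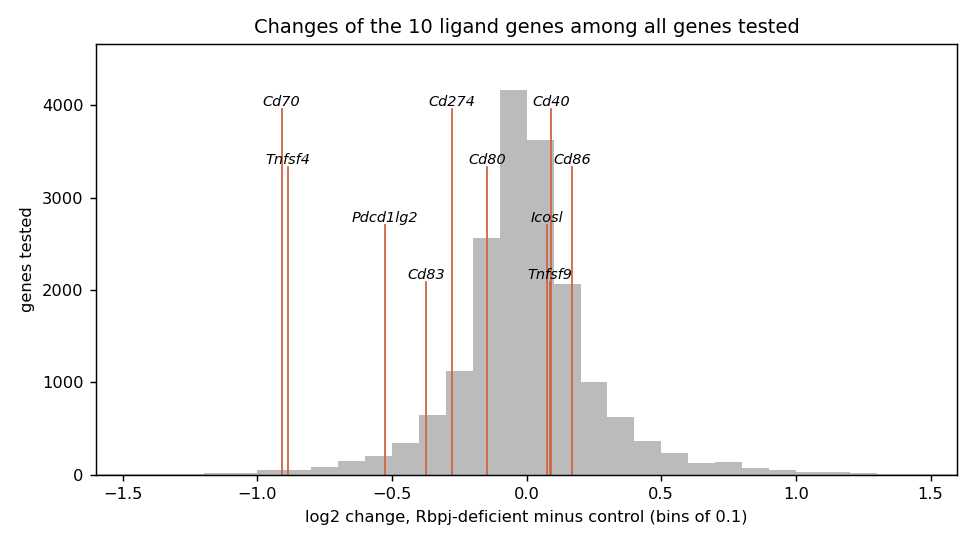
Number of genes tested (vertical axis) by log2 change, Rbpj-deficient minus control, in bins of 0.1, with the 10 genes marked by lines whose heights only separate the labels. Cd70 and Tnfsf4 lie in the lower tail, where 0.874% and 0.951% of genes tested had a lower change, and Icosl, Tnfsf9 and Cd40 lie near the centre.

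In order of their log2 changes from the lowest, the genes ran Cd70, Tnfsf4, Pdcd1lg2, Cd83, Cd274, Cd80, Icosl, Tnfsf9, Cd40 and Cd86. The 95% intervals of each gene and the next in this order overlapped, and the differences between neighbours in it were not tested. The interval of Tnfsf4 ended at -0.62, below the lower ends of Cd274 at -0.45, Cd80 at -0.30, Tnfsf9 at -0.20, Cd40 and Icosl at -0.10 and Cd86 at -0.03. The genes whose levels, centred over the 4 arrays, were closest to those of Cd70 were Tmem64, Pcolce and Pmp22, with root mean square differences of 0.01, 0.03 and 0.03. Their log2 changes were -0.93, -0.90 and -0.94, and none passed (limma adjusted p = 0.0711, 0.0668 and 0.0582).

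Among further ligands and surface partners with which antigen-presenting cells address T cells, the calls were mostly higher while most of the values were lower. Of 32 genes on that list 26 were tested, of which 5 rose, 1 fell and 20 did not pass, and 19 lay below 0 with a median of -0.19, against the -0.01 of all genes tested. Among all genes tested, 9490 of 17974 lay below 0. At an unadjusted p under 0.05 stood 5 higher and 11 lower, against 11.2% and 12.9% of all genes tested. Btla, an inhibitory receptor that pairs with HVEM, rose 2.70-fold (log2 difference 1.43, SE 0.16, limma adjusted p = 0.0482), from -1.42 ± 0.21 to 0.02 ± 0.23 (SD, n = 2). Tnfsf13b, the B-cell survival factor BAFF, rose by 1.11, or 2.16-fold (limma adjusted p = 0.0381). Cd276, the B7 family member B7-H3, rose by 0.86 from a dim level of -4.20 (limma adjusted p = 0.0411). Cd244a, a SLAM family receptor for CD48, rose by 0.80 (limma adjusted p = 0.0323), and Pvr, a ligand of CD226 and TIGIT, by 0.48 (limma adjusted p = 0.0451). Tnfsf15, the TNF family ligand TL1A, fell by 1.19, or 2.28-fold (SE 0.11, limma adjusted p = 0.0381), from -1.91 ± 0.15 to -3.10 ± 0.13 (SD, n = 2). Tnfsf18 (GITR ligand), which adjoins Tnfsf4 in the annotation, was not tested, as it was well above background on 1 of 4 arrays.

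**Figure D4:**
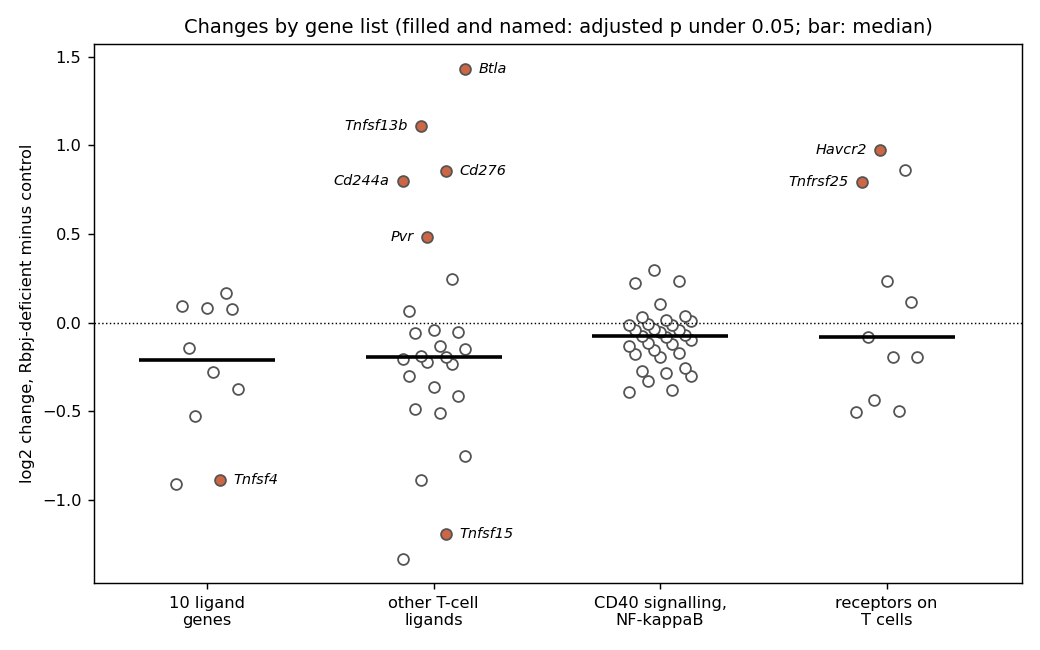
Log2 change, Rbpj-deficient minus control (vertical axis), of each tested gene of 4 lists, with the median as a bar and genes with adjusted p under 0.05 filled and named. Filled points are Tnfsf4 among the 10 genes, 5 higher and 1 lower among the other ligands, 2 higher among receptors on T cells and none in CD40 signalling.

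None of the genes that carry the signal of CD40 to NF-kappaB, or of the transcription factors listed with them, passed. Of 34 such genes 33 were tested, with 25 below 0 and a median of -0.08, while 9490 of all 17974 genes tested lay below 0. At an unadjusted p under 0.05 stood 9 lower and 3 higher, against 12.9% and 11.2% of all genes tested. The farthest from 0 were Bcl3, a nuclear partner of the p50 and p52 subunits, at -0.39 (limma adjusted p = 0.0855), and Map3k14, the kinase NIK of the non-canonical pathway, at -0.38 (limma adjusted p = 0.0639). The other probe of Map3k14 stood at -0.32. Over this list, the further ligands and the receptors on T cells together, 8 genes passed, of which 1 was lower. The trended and robust variance prior called 20, of which 12 were lower, and the normexp background 13, of which 6 were lower. The trended and robust prior kept all 8 calls and normexp kept 7 of them. Which further genes passed, and so the balance of higher and lower calls, thus depended on the setting.

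Receptors and partners found on T cells, some of which bind the ligands above and some of which can also be expressed by myeloid cells, were partly measurable in these cultures. Of 18 genes on this list 11 were tested, of which 2 rose, none fell and 9 did not pass, with 6 below 0. Of all genes tested, 1.05% were called as higher and 0.851% as lower, and 9490 of 17974 lay below 0. At an unadjusted p under 0.05 stood 3 higher and 3 lower, against 11.2% and 12.9% of all genes tested. Neither of the 2 that rose is a receptor for a product of the 10 genes. Havcr2 (TIM-3) rose by 0.98, or 1.97-fold (SE 0.07, limma adjusted p = 0.0324), and Tnfrsf25, the receptor of TL1A, by 0.80 (SE 0.09, limma adjusted p = 0.0451). Tnfrsf25 thus rose where Tnfsf15, the gene of its ligand, fell. Tnfrsf4, the gene of OX40, stood at -0.19 (limma adjusted p = 0.240). All 8 calls of these lists were lost when any 1 array was left out.

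Of 10 listed markers shared by dendritic cells, 9 had a probe and Zbtb46 had none. All 9 were well above background on all 4 arrays and none was called. Their summed log2 level was 10.3 on both control arrays and 10.2 to 10.3 on the Rbpj-deficient arrays. The 11 monocyte and macrophage markers tested were also well above background on all 4 arrays. Of 11 markers of mature dendritic cells tested, a list chosen with earlier results of these data known and sharing Relb and Birc3 with the CD40 list, Ccl22 (-0.78, limma adjusted p = 0.0496), Il4i1 (-0.64, limma adjusted p = 0.0378) and Serpinb9 (-0.48, limma adjusted p = 0.0465) fell, 8 did not pass and all 11 lay below 0, and their summed level went from 8.63 to 8.66 in control down to 8.22 to 8.29 in Rbpj-deficient cells. Neutrophil markers mostly lay the other way, with 7 of 8 tested above 0 and 1 below, and Retnlg not well above background on any array. Of the 8, 2 were called and both were higher. Their summed level was 4.44 to 4.64 in control and 5.18 to 5.49 in Rbpj-deficient cells. B-cell markers had a summed level of -0.89 to -0.83 in control and -0.64 to -0.57 in Rbpj-deficient cells, with Ms4a1 and Pax5 not well above background on any array and none of 5 called. Markers of T and natural killer cells had 1 of 7 called, higher, and summed levels of 2.23 to 2.30 and 2.11 to 2.13, with Cd247, Cd8b1, Gzma and Ncr1 not well above background on any array. Monocyte and macrophage markers had 2 of 11 called, both lower (8.55 to 8.62 and 8.45 to 8.48), plasmacytoid dendritic cell markers 1 of 5, lower (5.78 to 6.03 and 6.29 to 6.34), and mast cell, basophil and eosinophil markers 3 of 8, 2 of them higher (2.39 on both control arrays and 2.21 to 2.30). A sum weights bright probes most, and for 2 lists it went against the median: 6 of the 8 mast cell, basophil and eosinophil markers lay above 0 with a median of 0.63, while Siglecf fell by 0.63 from 1.73, and 4 of the 7 T and natural killer cell markers lay above 0 with a median of 0.30, while Nkg7 had means of 1.84 in control and 1.63 in Rbpj-deficient cells. Beside these counts of calls, 1.05% of all genes tested were called as higher and 0.851% as lower. Beside the counts below and above 0, 9490 of all 17974 genes tested lay below 0 and 8484 above. The part of these cells in the changes of the 10 genes was not tested.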

How the data were processed

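RNA of 2 control and 2 Rbpj-deficient BMDC samples was hybridised with Cy3 to one-colour Agilent arrays, 150 ng each per the labels' protocols. Per the file headers the deposited spot intensity came from Agilent Feature Extraction 10.7.1.1 with background subtracted and trends removed, and it was not scaled between arrays. The 4 arrays shared 1 slide. The authors' deposited table of log2 values, centred per probe, was made by steps that are not given in the sources used here, and it served as an alternative. Against the scanner values centred the same way its columns correlated at 1.000, in the same direction, with column medians of -0.0339 to 0.0528.

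Outlier spots (127 to 176 per array) were left out, signal was taken to log2 and reduced by the 75th percentile of each array, and replicate spots were averaged. A probe was kept if both arrays of a genotype had it well above background, and the brightest kept probe stood for its gene. Genotypes were compared with limma 3.58.1 (R 4.3.3) and p-values adjusted after Benjamini-Hochberg over 17974 genes, 12756 of them named and the rest unnamed targets of the array. SE and intervals are those of limma, and SD is between the 2 arrays of a genotype. Names came from RefSeq annotation of GRCm38.p6, which gave 26055 probes a symbol and 13374 none. The array annotation is on mm9 per the file headers, so that no coordinates of probes are given.

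The genes named were the 10 members, Rbpj and Itgax, list genes past the threshold or else the 2 farthest from 0, and the 3 genes most like the member with the largest change. Tnfsf14, Tnfsf18, Tnfrsf4, Plgrkt, Ric1, Siglecf, Nkg7 and the 3 markers of mature cells with values were picked once their values had been seen. The members and lists were chosen with earlier results of these data known. Alternatives were another background correction, 2 other scalings, the deposited table, 2 other filters, another probe rule, another variance prior, the replicate number as a block and leaving out each array.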

Additional observations from a re-analysis of the deposited data

How the results depend on the processing

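The log2 changes of the 10 genes were recomputed under 13 alternatives. Of 130 values, 120 kept their direction and their side of the threshold, 6 lost the call (all of Tnfsf4), 3 gained one (Cd70 under 2 settings and Cd274 under 1), and 1 reversed, Tnfsf9 at -0.026 without Rbpj-deficient replicate 1 (0.196 without replicate 2). The call of Tnfsf4 was kept in 7 alternatives, with limma adjusted p from 0.0108 to 0.275 over all 13. Of the 10 genes, of the 3 pathway lists and of all genes, in that order, 1, 8 and 342 passed in limma. Of the list calls 1 of 8 was lower, against 2 of 8 with median scaling, 6 of 13 with normexp and 12 of 20 with the trended and robust prior. With normexp, applied to the median signal as the files used here hold no mean signal and therefore chosen after seeing the data, 2, 13 and 888 passed, and with the trended and robust prior 3, 20 and 1553. Without a filter on dim probes 0, 0 and 0 passed in limma, with 4, 24 and 3658 at an unadjusted p under 0.05. With probes well above background on all 4 arrays 472 genes passed. Leaving out 1 array ended the calls of the 10 genes and of the lists in all 4 cases. In each such fit fewer arrays were left to estimate the spread, and the lone array of a genotype was assumed to vary like the other genotype. With the replicate number as a block 0 of the 10 genes, 0 list genes and 0 of all genes passed in limma, with 4, 30 and 3673 at an unadjusted p under 0.05. The labels state no pairing of same-numbered arrays, and the deviations of such arrays from their genotype means correlated at -0.05 across genes. With 2 arrays per genotype the deviations mirror each other, so both same-numbered pairs give the same value and only 1 comparison is left. That single comparison cannot decide whether same-numbered arrays shared a preparation. The causes of the differences between the settings were not tested.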
